A study of Canis lupus familiaris with 8 samples.

Results

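E-cadherin, its catenins and the other proteins of the adherens junction were followed as 10 genes among the 37952 genes of a count table. The genes were CDH1, CDH6, CDH16, CTNNA1, CTNNB1, CTNND1, JUP, VCL, AFDN and NECTIN2. They were taken by symbol, as cadherins and as adaptors that act with cadherins. All 10 were in the table and all 10 passed the filter on low counts. The cells were MDCK GII, a line of dog kidney epithelial cells, plated overnight on collagen-coated elastic silicone membranes in normal medium after a short seeding step in low calcium. In 4 wells the membrane was stretched by 18% along both of its axes at once for 2 hours. The other 4 wells were controls with no strain, and no genotype, drug or other agent differed between the groups. The labels call the wells technical quadruplicates of a single line, so every p-value and interval here describes the spread between wells.

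The adherens junction is the belt that joins neighbouring epithelial cells just below their tight junctions. The outer part of E-cadherin binds E-cadherin on the next cell. Its tail binds beta-catenin or plakoglobin, which bind alpha-catenin, which holds actin, and p120-catenin binds the tail nearer the membrane and keeps cadherin at the surface. Under tension alpha-catenin opens and recruits vinculin, so this chain is a known route by which force is sensed at cell contacts, while nectins and afadin form a parallel adhesion system at the same junction. By its title, the series deals with signals that E-cadherin passes on under force. The comparison therefore asks whether the transcripts of the junction itself changed within 2 hours of strain.

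Each well held from 27047358 to 32478887 counts. All 11 epithelial markers (among them EPCAM, KRT8 and ESRP1) were above the filter, and their summed level was 5762 to 6504 CPM in control wells and 6038 to 6216 CPM in stretch wells, where CPM is the usual depth-scaled count, computed here with TMM-scaled library sizes. Of 12 kidney tubule markers, 6 passed the filter, with PAX8, PAX2 and CUBN present, while the segment markers SLC12A1 and CALB1 were at 0 in all 8 wells and UMOD, AQP2, SLC34A1 and LRP2 had at most 4 counts in a well. Of 11 fibroblast or mesenchymal markers, COL1A2, COL3A1, DCN and LUM were at 0 in all wells, and VIM and FN1 were high (2698 ± 217 and 335 ± 105 CPM in control wells, SD, n = 4). The summed level of that list was 2716 to 3384 CPM in control wells and 2801 to 3442 CPM in stretch wells. No marker passed the threshold between the groups in edgeR's test, with or without the replicate block described below.

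Levels of different genes were compared per exon length, as RPKM (the CPM divided by the exon length in kilobases). In that scale the order over the 8 wells was CTNNB1, CTNNA1, JUP, CDH1, CDH6, VCL, CTNND1, NECTIN2, AFDN and CDH16. Beta-catenin (CTNNB1, chromosome 23, 10790373 to 10803572) had 347 RPKM (from 324 to 402) and ranked 253 among the 14571 tested genes. E-cadherin (CDH1, chromosome 5, 81341865 to 81420857, minus strand) had 144 RPKM (from 135 to 150) and ranked 601. Neighbours in this order overlapped in a single place, between CTNNA1 (228 to 251 RPKM) and JUP (190 to 230 RPKM). The exon length in the table joins the exons of all annotated transcripts, so a gene with many alternative exons reads lower on this scale. The annotation listed 646 exon entries for AFDN, 237 for CTNND1, 90 for CDH16 and 86 for VCL. Each of the other members had from 11 to 24. How far this moved the order was not tested.

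**Figure D1:**
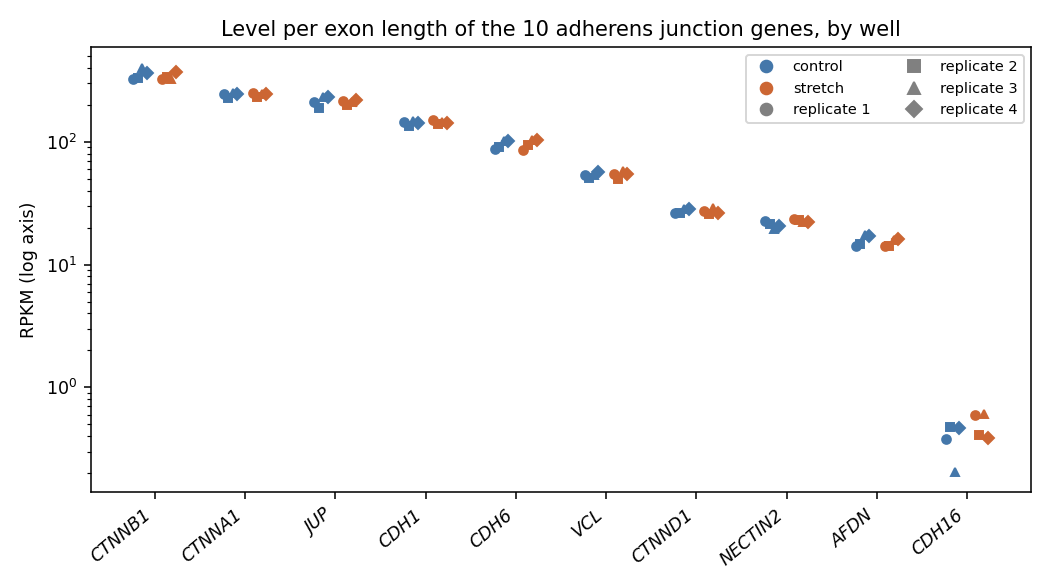
RPKM of each gene in every well on a log axis, with control wells in blue, stretch wells in orange and a symbol for each replicate number. The core complex genes CTNNB1, CTNNA1, JUP and CDH1 lie between 135 and 402 RPKM, CDH16 lies under 1 RPKM, and control and stretch wells overlap for every gene.

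E-cadherin stood beside a second abundant cadherin, cadherin-6. CDH6 (chromosome 4, 76860858 to 76916322, minus strand), also called K-cadherin, is a type II cadherin of the developing and adult kidney tubule. In control wells 1 to 4 it had 706, 733, 820 and 818 CPM, and CDH1 had 626, 583, 641 and 616 CPM. Per exon length CDH6 stood below CDH1 in every well, at 0.667 ± 0.0461 of its level in control wells and 0.674 ± 0.0706 in stretch wells (SD, n = 4 each). CDH16 (chromosome 5, 82984014 to 83003379) encodes Ksp-cadherin, a kidney-specific cadherin with a short tail that lacks the catenin-binding region, and it lies on the same chromosome as CDH1. It had only 20 to 59 counts per well and made up 0.161 ± 0.057% of the summed RPKM of these 3 cadherins in control wells, against 59.9 ± 1.69% for CDH1.

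Of 15 further cadherins, 4 passed the filter. CDH17 (liver-intestine cadherin, which like CDH16 has a short tail) had 86.6 ± 21.2 CPM in control wells, and CDH3 (P-cadherin) had 47.9 ± 17.1 CPM. Per exon length they stood at 0.177 ± 0.0378 and 0.101 ± 0.033 of CDH1. CDH24 also passed, and CDH13 (T-cadherin) passed with only 4 to 20 counts per well. The other 11 had at most 13 counts in any well, and 6 of them had 0 counts in all 8 wells, which in the shallowest well allows up to 3 counts or 0.111 CPM. N-cadherin (CDH2), the cadherin of mesenchymal cells, had 0 to 13 counts, and the endothelial CDH5 had 0 to 2. The relatives of alpha-catenin from neurons and heart, CTNNA2 and CTNNA3, had at most 2 counts in a well.

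No member changed past the threshold after strain. In edgeR's quasi-likelihood test 0 of 10 members had an adjusted p under 0.05 without a block, where 0% of all 14571 tested genes passed, and 0 of 10 had an unadjusted p under 0.05, against 3.97% of all genes. Equal replicate numbers in the titles were also used as a block, which compares each stretch well with the control well of the same number. With this replicate block 0 of 10 members passed, against 0.7% of all genes, and 1 of 10 (NECTIN2) had an unadjusted p under 0.05, against 8.89%. DESeq2 and limma-voom called 0 members as well, and 40 and 0 of all tested genes. The median log2 change of the members was 0.0069 without the block, beside -0.0032 over all genes. Every stretch well lay beyond every control well in 0 of 10 members, against 2.55% of all genes.

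CDH1 in stretch wells 1 to 4 had 645, 597, 623 and 615 CPM, which lay inside and just above the range of the control wells. The groups overlapped, and 2 of 4 pairs rose. Its mean was 617 ± 24.7 CPM in control and 620 ± 20.0 CPM in stretch wells, a log2 change of 0.0076 ± 0.042 (SE; edgeR, adjusted p = 0.999). The 95% interval of that change, for this gene alone, ran from -5.58% to 7.03%. A change in CDH1 mRNA larger than this was therefore outside the interval, while a smaller change was not detectable with these wells.

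CDH6 had 690, 757, 837 and 835 CPM in stretch wells, against the control values above. The log2 change of CDH6 was 0.02 ± 0.069 (interval -8.7% to 12.6%; edgeR, adjusted p = 0.999). The groups overlapped, and the wells of each group fell into a low and a high set that is described further on. CDH16 had 34, 49, 20 and 50 counts in control wells and 57, 37, 59 and 41 in stretch wells. Its interval was wide, from -14.7% to 98.2% around a log2 change of 0.38 ± 0.28, and 2 of 4 pairs rose. The change of CDH16 ran from 0.17 to 0.51 when 1 well was left out. With the block and 1 pair left out it ran from 0.046, without replicate 3, to 0.63.

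**Figure D2:**
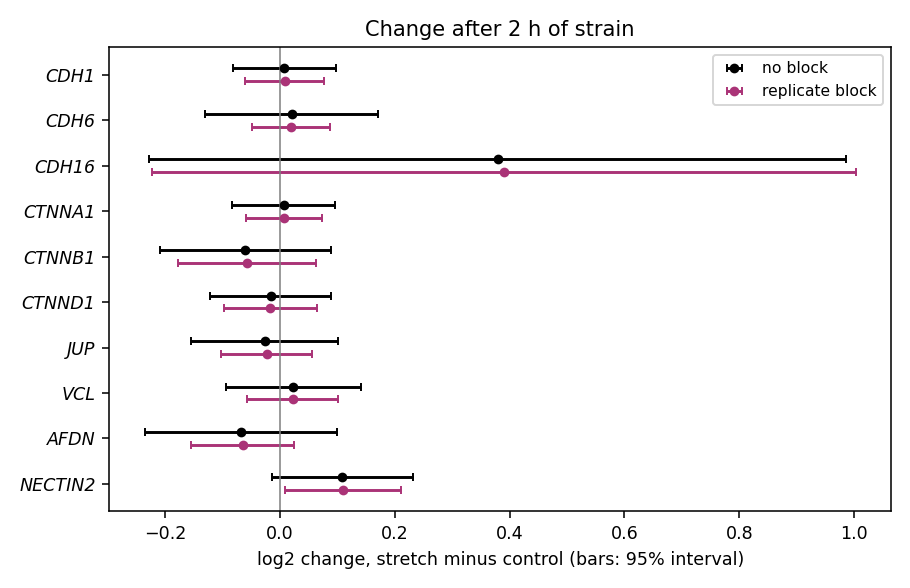
Log2 change of each gene, stretch minus control, with its 95% interval, from edgeR without a block (black) and with the replicate block (purple). All 10 intervals without the block include 0, 9 of the 10 changes are at most 0.11 in size, and the wide interval belongs to CDH16 with 20 to 59 counts per well.

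Among the catenins, CTNNA1 (chromosome 11, 26323192 to 26509271), the alpha-catenin that carries the load from the cadherin complex to actin, was the most even. It had 892, 829, 905 and 898 CPM in control wells and 913, 845, 893 and 888 CPM in stretch wells. The log2 change was 0.0062 ± 0.041, with an interval from -5.59% to 6.83%. CTNND1 (chromosome 18, 38884472 to 38938494, minus strand), p120-catenin, had 173, 173, 186 and 185 CPM in control wells and 177, 170, 188 and 174 CPM in stretch wells, with an interval from -8.06% to 6.31%. Both groups covered nearly the same range for these genes.

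Beta-catenin and plakoglobin bind the same site of the cadherin tail, and plakoglobin also serves the desmosome. CTNNB1 had 1127, 1142, 1393 and 1249 CPM in control wells and 1121, 1164, 1133 and 1289 CPM in stretch wells. Control replicate 3 was the highest of the 8 wells. The log2 change was -0.061 ± 0.068 (interval -13.5% to 6.33%), and without that well it was 0.0058, so its sign rested on a single control well. JUP (plakoglobin, chromosome 9, 20905422 to 20929851) had 658, 598, 724 and 723 CPM in control wells and 676, 629, 663 and 685 CPM in stretch wells, all within the control range. Its log2 change was -0.027 ± 0.059 (interval -10.2% to 7.2%). The ratio of JUP to CTNNB1 per exon length was 0.606 ± 0.0381 in control and 0.621 ± 0.038 in stretch wells, a difference smaller than either SD.

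Vinculin (VCL, chromosome 4, 25137362 to 25252305), which binds opened alpha-catenin and also acts at focal adhesions, had 291, 273, 292 and 309 CPM in control wells. In stretch wells it had 299, 269, 317 and 298 CPM. The groups overlapped, with a log2 change of 0.023 ± 0.055 (interval -6.37% to 10.3%). The ratio of VCL to CTNNA1 per exon length was 0.221 ± 0.0062 in control wells and 0.224 ± 0.0104 in stretch wells.

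Apart from CDH16, the largest log2 changes among the members belonged to NECTIN2 and AFDN, and neither passed. NECTIN2 (chromosome 1, 111251830 to 111278287, minus strand), a nectin that binds nectins on the next cell, had 63.6, 59.3, 54.9 and 58.2 CPM in control wells and 65.5, 64.1, 62.4 and 62.3 CPM in stretch wells. It was higher after strain in 4 of 4 pairs, as were 8.45% of all tested genes, and the groups overlapped through control replicate 1. Its log2 change was 0.11 ± 0.057 without the block (interval -1.03% to 17.4%; edgeR, adjusted p = 0.999) and 0.11 ± 0.047 with it (0.638% to 15.7%; edgeR, adjusted p = 0.499). The unadjusted p was 0.0799 and 0.0343. AFDN (chromosome 1, 55950758 to 56088230), which encodes afadin, the adaptor between nectin tails and actin, had 103, 108, 129 and 125 CPM in control wells and 104, 104, 116 and 119 CPM in stretch wells. Its log2 change was -0.068 ± 0.077 (interval -15.1% to 7.11%), and 1 of 4 pairs rose. When 1 well was left out, the change of AFDN ran from -0.12 to -0.014. The ratio of AFDN to NECTIN2 per exon length was 0.756 ± 0.124 in control wells and 0.666 ± 0.0633 in stretch wells, with overlapping groups.

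The wells also showed how the members vary without regard to strain. The profile of each gene over the 8 wells was centred (log2 CPM minus its mean) and set against that of CDH1 by the root mean square difference. Among the 14570 other tested genes the closest was CTNNA1, at 0.015 on the log2 scale, where counting error alone would give 0.013. ANXA11 came next, at 0.0159. The level of CTNNA1 per exon length was 1.69 ± 0.0237 times that of CDH1 in control wells and 1.69 ± 0.0163 times in stretch wells, and the ratio had a coefficient of variation of 1.12% over the 8 wells. The wells share their library, depth and scaling for both genes, and deeply counted genes with little spread lie close together by this measure.

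The other members stood further from CDH1. CTNND1 ranked 550 and VCL 1120 by the same measure, with differences of 0.0496 and 0.0599. JUP followed at 0.0629 and NECTIN2 at 0.0924. CTNNB1, CDH6 and AFDN differed by 0.105, 0.115 and 0.117, and CDH16 by 0.449. The ratio of CTNNB1 to CDH1 per exon length ranged from 2.16 to 2.7 over the wells, with 2.47 ± 0.192 in control and 2.36 ± 0.196 in stretch wells. The spread of CTNNB1, with a coefficient of variation of 9.98% in control wells, was far above its counting error of 0.529%.

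**Figure D3:**
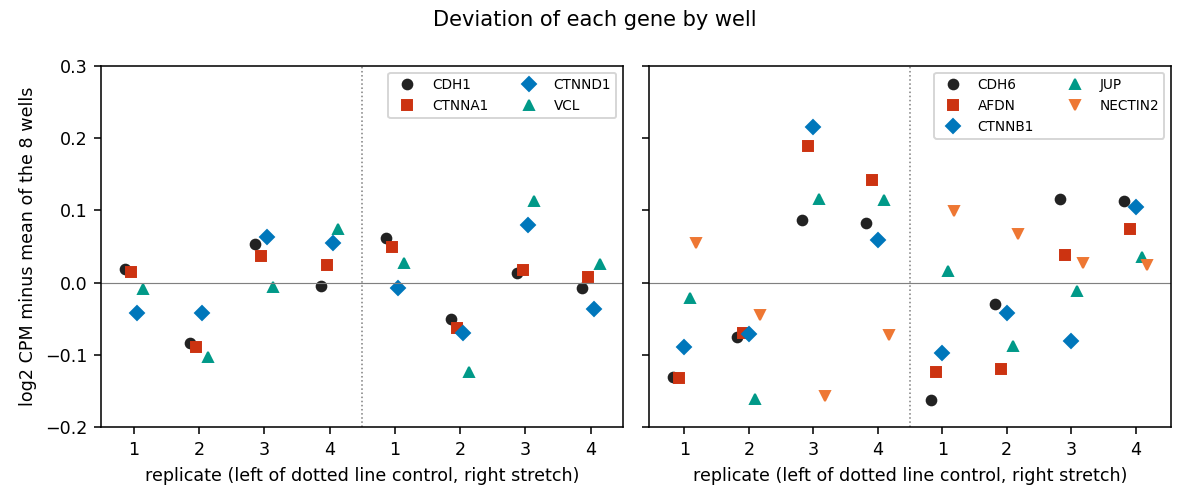
Log2 CPM of each gene minus its mean over the 8 wells, by replicate number, with control wells left of the dotted line and stretch wells right of it. The points of CDH1 and CTNNA1 nearly coincide in all wells, and CDH6 and AFDN are lower in replicates 1 and 2 than in replicates 3 and 4 of both groups.

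Part of that spread followed the replicate number. CDH6 averaged 719 CPM in control replicates 1 and 2 and 819 CPM in control replicates 3 and 4, and in stretch wells 724 and 836 CPM. AFDN averaged 106 and 127 CPM in control wells and 104 and 118 CPM in stretch wells. In these 2 of 10 members every well of replicates 1 and 2 lay below every well of replicates 3 and 4, and 20.4% of all tested genes were separated in this way in either direction. JUP and CTNNB1 showed the same order in control wells (628 and 724 CPM, and 1135 and 1321 CPM) with overlap in stretch wells. So did CTNNA1 (861 and 901 CPM), CTNND1 (173 and 186 CPM) and VCL (282 and 300 CPM). NECTIN2 had the opposite order, 61.5 and 56.5 CPM in control and 64.8 and 62.3 CPM in stretch wells. The labels give no meaning to the number beyond the replicate. Within replicates 1 and 2 alone, and within replicates 3 and 4 alone, 0 members passed.

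The wider junction was read from 7 gene lists. They named 119 genes, the table held 117, and 96 passed the filter. Without a block 0 of 96 passed in edgeR's test, and 6 had an unadjusted p under 0.05, against 3.97% of all tested genes. DESeq2 called 0 of them and 40 of all tested genes, and limma-voom called 0 of either. With the replicate block 2 of 96 rose and 0 fell, against 0.528% and 0.172% of all tested genes. The 2 genes were SNAI2 and PDLIM1. The median log2 change with the block was 0.0033 over the 96 genes, beside -0.0022 over all genes. The change was positive in 50 of the 96, and in 7109 of all 14571 tested genes. With a block of only 2 levels (replicates 1 and 2, replicates 3 and 4) 0 of 96 passed, against 0.398% of all genes.

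Of 14 tested E-cadherin repressors and epithelial transcription factors, 1 rose with the replicate block and 0 fell (0.528% and 0.172% of all tested genes), and the median log2 change was -0.0058. SNAI2 (Slug, a zinc finger repressor known to bind E-boxes of the E-cadherin promoter, chromosome 29, 1416068 to 1418591, minus strand) had 6.9, 7.54, 13.3 and 8.93 CPM in control wells. In stretch wells it had 10.7, 16.4, 16.7 and 13.6 CPM. All 4 pairs rose, and the groups overlapped through control replicate 3. The log2 change was 0.66 ± 0.11 with the block (edgeR, adjusted p = 0.00823) and 0.65 ± 0.21 without it (edgeR, adjusted p = 0.999), and the adjusted p with the block of 2 levels was 0.297. With the replicate block and 1 pair left out, the adjusted p was 0.0855 without the pair of replicate 1 and 0.0766 without that of replicate 4 (edgeR), so the call rested on both. In the same wells CDH1 had a log2 change of 0.0079 ± 0.033 with the block.

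SNAI1 (Snail), ELF3 and KLF4 were singled out after their values were seen. SNAI1 had 7.75, 8.16, 17.8 and 9.33 CPM in control wells and 13.1, 18.9, 15.4 and 13.7 CPM in stretch wells, so that control replicate 3 stood far above the other control wells. Its log2 change was 0.50 ± 0.26 without the block (edgeR, adjusted p = 0.999) and 0.56 ± 0.25 with it (edgeR, adjusted p = 0.668). Without control replicate 3 it was 0.86 (edgeR, adjusted p = 0.0379). Without the pair of replicate 3, with the block, it was 0.84 (edgeR, adjusted p = 5.7e-05). Over all pairs left out in turn the change ran from 0.34 to 0.84 and the adjusted p from 5.7e-05 to 0.86 (edgeR). With 1 well left out and no block the change ran from 0.38 to 0.86. Omitting the pair of replicate 3 also raised the count over all tested genes with the block from 102 to 186. KLF4, an epithelial factor of the Krüppel-like family, had 1.4 to 1.95 CPM in control and 2.4 to 2.92 CPM in stretch wells. Its groups did not overlap, as in 2.55% of all tested genes, and it had only 45 to 94 counts per well. ELF3, an epithelial ETS factor, had 114 to 138 and 129 to 154 CPM. Neither passed with the block (edgeR, adjusted p = 0.124 and 0.115). ELF3 passed without the pair of replicate 4 (edgeR with the block, adjusted p = 0.0377). Over all pairs left out in turn its adjusted p ran from 0.0377 to 0.424 (edgeR with the block). Of the other repressors on the list, TCF3 (which encodes E47) had 46.0 ± 5.71 CPM in control and 43.2 ± 1.12 CPM in stretch wells, with an adjusted p of 0.823 from edgeR with the block. ZEB2 had 11 to 25 counts per well and ZEB1 7 to 19, TWIST1 had at most 2, and TWIST2 had 0. GRHL2 and OVOL1 of the same list were lower in all 4 pairs. GRHL2 had 42.20 to 47.35 CPM in control and 38.72 to 42.15 CPM in stretch wells, with no overlap. OVOL1 had 5.78 to 9.95 and 5.09 to 8.52 CPM. Neither GRHL2 nor OVOL1 passed (edgeR with the block, adjusted p = 0.491 and 0.355). At an unadjusted p under 0.05 with the block, 4 of the 14 rose and 2 fell, against 727 and 568 of all 14571 tested genes. TCF3, ZEB2, GRHL2 and OVOL1 were also named after their values were seen.

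Of 21 tested actin linkers at cadherin junctions, 15 had a positive change with the block, beside the 7109 of 14571 over all genes. In this list 1 gene passed, against 0.7% of all genes, and the median was 0.023. PDLIM1 (chromosome 28, 8952472 to 8999504, minus strand), a PDZ and LIM domain protein that binds alpha-actinin, had 100, 97.3, 111 and 105 CPM in control wells and 110, 116, 133 and 118 CPM in stretch wells. All 4 pairs rose, and the groups overlapped by a narrow margin, with 111 CPM in control replicate 3 and 110 CPM in stretch replicate 1. Its log2 change was 0.21 ± 0.042 with the block (edgeR, adjusted p = 0.0265) and 0.21 ± 0.064 without it (edgeR, adjusted p = 0.938), and the adjusted p with the block of 2 levels was 0.0506. The call was lost without the pair of replicate 1, 2 or 4 (edgeR with the block, adjusted p = 0.12, 0.132 and 0.0837). ZYX (zyxin, also singled out after its values were seen) had 110 ± 16.7 CPM in control and 125 ± 11.2 CPM in stretch wells. Its adjusted p was 0.126 with the block and 0.0304 when the pair of replicate 3 was left out (edgeR). Over all pairs left out in turn it ran from 0.0304 to 0.503 (edgeR with the block). ACTN4, an alpha-actinin and the most abundant linker per exon length, had 630 ± 45.4 and 634 ± 34.1 CPM.

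**Figure D4:**
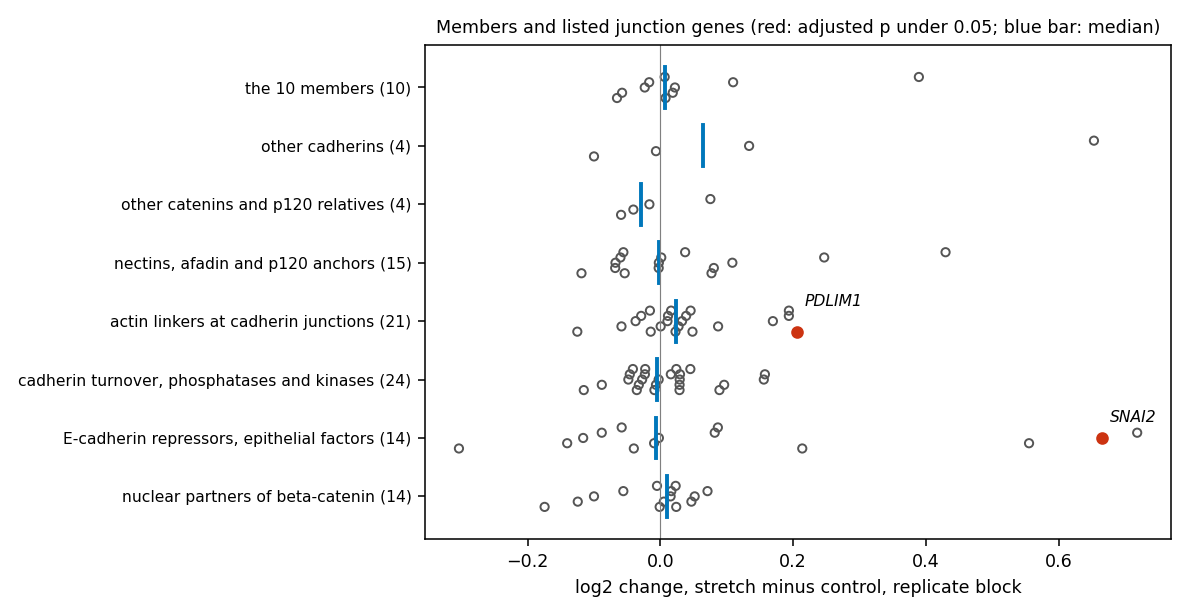
Log2 change with the replicate block for the 10 members and for each tested gene of the 7 lists, with the number of genes in parentheses, the median as a blue bar and genes past the threshold in red. The medians lie between -0.029 and 0.064, and the 2 red points are PDLIM1 at 0.21 and SNAI2 at 0.66.

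The remaining lists held no gene past the threshold in either fit. Of 15 nectins, afadin partners and p120-linked anchors, 7 had a positive change with the block, and the median was -0.0023. PLEKHA7, which ties p120-catenin to microtubules and afadin, had 2.06 ± 0.356 CPM in control and 2.78 ± 0.449 CPM in stretch wells (edgeR with the block, adjusted p = 0.47), from 48 to 99 counts per well. PDZD11, a partner of PLEKHA7, had 24.4 ± 1.23 and 24.4 ± 2.18 CPM. It overlaps 54 exon bases of the more abundant KIF4A on the opposite strand, and the strand setting of the counting is not known, so its value is uncertain.

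Of 24 tested genes of cadherin turnover, phosphatases and kinases, 11 had a positive change with the block, and the median was -0.0046. MDM2, a ubiquitin ligase reported to act on E-cadherin besides p53, had 104, 117, 120 and 114 CPM in control wells and 126, 126, 132 and 122 CPM in stretch wells. The groups did not overlap, as in 2.55% of all tested genes. The log2 change was 0.16 ± 0.043 with the block (edgeR, adjusted p = 0.137). PTPN1, a phosphatase that acts on beta-catenin, had 29.9 to 36.7 CPM in control and 36.3 to 39.5 CPM in stretch wells (edgeR with the block, adjusted p = 0.353). RAB11A, the recycling GTPase and the most abundant of the list per exon length, had 127 ± 2.91 and 129 ± 6.15 CPM. PTPRK had 0 counts in all wells.

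Among 14 tested nuclear and degradation partners of beta-catenin the median was 0.01. AXIN1, a scaffold of the destruction complex, had 44.9 ± 1.34 CPM in control and 41.8 ± 1.26 CPM in stretch wells and was lower in all 4 pairs, as were 7.84% of all tested genes (edgeR with the block, adjusted p = 0.605). It shares exon bases with a gene on the opposite strand that had 10 counts over all wells. BCL9L, a nuclear coactivator of beta-catenin, had 143 ± 6.91 and 137 ± 7.22 CPM, and CSNK1A1, the priming kinase of the destruction complex, had 455 ± 24.7 and 462 ± 17.0 CPM. LEF1 had 0 counts in all wells.

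Of 4 tested catenin relatives, PKP4, a p120 relative, was the most abundant, with 478 ± 29.1 CPM in control and 473 ± 23.3 CPM in stretch wells. ARVCF had 26.1 ± 0.938 and 25.1 ± 2.34 CPM and CTNNBL1 had 22.1 ± 1.59 and 23.3 ± 1.4 CPM, and neither passed (edgeR with the block, adjusted p = 0.903 and 0.849). Of the further cadherins, CDH3 had 35.7, 34.8, 71.4 and 49.5 CPM in control wells and 42.0, 44.8, 56.3 and 61.2 CPM in stretch wells. For CDH3 the log2 change was 0.13 ± 0.13 with the block (edgeR, adjusted p = 0.893). Without the pair of replicate 3, in which the control well was the highest of the 8, it was 0.30 (edgeR, adjusted p = 0.00196). Over all pairs left out in turn the change of CDH3 ran from 0.064 to 0.30 and the adjusted p from 0.00196 to 0.973 (edgeR with the block). CDH17 had 118 CPM in the same control well against 72.2 to 82.3 CPM in the other control wells, and its log2 change was -0.12 ± 0.16 without a block and 0.063 without that well. CDH13 had 0.273 ± 0.122 and 0.435 ± 0.176 CPM, with an adjusted p of 0.773 from edgeR with the block.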

How the data were processed

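For 37952 genes and 8 wells the authors deposited unnormalized exon read counts. Per the submitters' processing notes, FastQC 0.11.8, Trim Galore 0.6.5, STAR 2.7.3a, Subread and featureCounts were used. The libraries were stranded and polyA-selected, per the labels' protocols. The strand setting and the treatment of multi-mapping reads are not given in the sources used here. The table names no build, but 37291 symbols matched the RefSeq table of UU_Cfam_GSD_1.0 with identical start and end. None of the 10 genes shares exon bases with another gene.

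Counts were tested with edgeR 4.0.16 in R 4.3.3 (TMM, filterByExpr with a minimum count of 10 and total of 15, glmQLFit robust, glmQLFTest, two-sided), with Benjamini-Hochberg adjustment over 14571 genes and a threshold of 0.05. SE and 95% intervals came from the quasi-likelihood F, and the script was tested on simulated data. RPKM used the table's exon length. Alternatives were DESeq2 1.42.0, limma-voom (limma 3.58.1), other scaling and filters, blocks, and omitted wells or pairs. Wells of a group differed by more than sampling noise (chi-square per degree of freedom 5.56 to 26.8). Same-numbered wells deviated together, with correlations over 14571 genes of 0.108 to 0.328, so the numbers were treated as pairs, although the best match was the well of the same number in only 1 of 4 cases. Exchanging 1 with 2 and 3 with 4 gave a mean of 0.18 against 0.199.

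Named genes were all members and, per list, those past the threshold with the replicate block or else the 2 with the smallest p, plus the most abundant per exon length. A few results that this rule covers are not reported here. The members and lists were chosen with earlier results of these data known. Figures used matplotlib 3.10.9 under Python 3.11.15.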

Additional observations from a re-analysis of the deposited data

Results flagged for a closer look

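In 66 groups of 4 wells (33 genes in control and in stretch wells), 2 held a well whose distance to its nearest neighbour took up most of the spread of the group (Dixon's test), and chance alone would give about 3.3 such groups. PKP4 had 522 CPM in control replicate 4 against 461 to 467 CPM in the other control wells. SNAI1 had 17.8 CPM in control replicate 3 against 7.75 to 9.33 CPM.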

How the results depend on the processing

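The count of members past the threshold was 0 under all 23 alternatives. The ratios of members within a well do not depend on the scaling of that well. The count of listed genes was 0 in edgeR without a block, 2 with the replicate block and 2 within replicates 1 and 2, and 0 to 5 when a well or pair was left out. The 5 genes without the pair of replicate 3 were CDH3, ZYX, SNAI1, PDLIM1 and SNAI2. With the block, the adjusted p of SNAI2 ran from 1.4e-04 to 0.0855 and that of PDLIM1 from 0.0349 to 0.132 when a pair was left out (edgeR). Over all genes the count was 0 in edgeR, 40 in DESeq2, 11 with no filter on low counts, 102 with the replicate block, 58 with the block of 2 levels, 51 within replicates 1 and 2 and 25 within replicates 3 and 4. It was 0 to 12 when a well was left out without a block, with 12 without control replicate 3. When the pair of replicate 1, 2, 3 or 4 was left out with the block it was 43, 67, 186 and 74. The replicate block changed no call other than SNAI2 and PDLIM1 among the named genes. CDH16, AFDN and NECTIN2 kept their sign in every alternative, and 7 members did not. Within replicates 3 and 4, CDH1 changed by -0.016, CTNNA1 by -0.012, CDH3 by -0.034, PDZD11 by -0.043 and ACTN4 by -0.043 on the log2 scale. Within replicates 1 and 2, CTNNB1 changed by 0.010, CTNND1 by 0.0037, JUP by 0.055, ARVCF by 0.060 and BCL9L by 0.020. PDZD11 was at -0.0025 in limma-voom and -0.0023 with the replicate block. When a well was left out without a block, the log2 change ranged from -0.015 to 0.028 for CDH1, -0.017 to 0.077 for CDH6, -0.018 to 0.030 for CTNNA1, -0.10 to 0.0058 for CTNNB1, -0.045 to 0.0068 for CTNND1, -0.078 to 0.0082 for JUP, -0.010 to 0.069 for VCL, -0.031 to 0.048 for ACTN4, -0.19 to 0.063 for CDH17, -0.027 to 0.35 for CDH3, -0.035 to 0.050 for PDZD11 and -0.048 to 0.028 for PKP4. With a pair left out and the block, signs turned without replicate 1 for CDH1 (-0.0034), CTNNA1 (-0.0026), ACTN4 (-0.019) and PDZD11 (-0.061), without replicate 3 for CTNNB1 (0.021), JUP (0.0099), VCL (-0.012), CDH17 (0.037), ARVCF (0.0072) and PDZD11 (-0.016), and without replicate 4 for CTNND1 (0.0089) and CSNK1A1 (-0.0049). The cause of these changes of sign was not tested. CDH16, CDH13, PLEKHA7 and KLF4 had fewer than 100 counts in every well. For CDH16 the counting error was 15.2%, beside a coefficient of variation of 33.3% in control and 23.6% in stretch wells.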
